A study of Homo sapiens with 15 samples.

Results

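The 314 genes described here carry a symbol made of LINC and digits, the name given to a long intergenic noncoding RNA that has no other accepted name. They were chosen by that symbol and by reaching 10 counts in no fewer than 2 replicates of every condition, of which there were 5, a limit that 314 of the 2229 LINC-named genes in the count tables passed, out of 16612 genes of any kind that passed and 57500 in the tables. The rule used no difference between conditions. The extract came from U2OS, a human osteosarcoma cell line. The 5 conditions were the extract itself, called input and not pelleted, and the pellets of extracts that had been incubated for 2 h at 37 °C with nothing added (mock), with 250 nM dsRNA, which activates the kinase PKR, with 2 µg/ml silvestrol, an inhibitor of the RNA helicase eIF4A, or with 1% PEG, a crowding polymer. Pellets were collected by a spin of 10 min at 14000 g, so every pellet library, mock included, holds RNA that sedimented after incubation. Each condition had 3 biological replicates, giving 15 libraries of poly(A)-selected RNA. The labels give the cells as wild type and call the pellets cytosolic condensates, whereas elsewhere the study names a line that stably expresses YFP-G3BP1, and which of these lines supplied the extract was not settled from the sources used here. Reads are counted as shares of a library, so that a larger amount of an RNA and a smaller amount of the other RNAs cannot be told apart.

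Long intergenic noncoding RNAs are transcribed by RNA polymerase II, and many are capped, spliced and polyadenylated like messenger RNAs. Most are less abundant than messenger RNAs, and many are kept in the nucleus, although a share of them reaches the cytosol, where a few bind ribosomes and yield small peptides. Stress granules and related condensates of G3BP1 are cytosolic assemblies of untranslated RNA and protein in which long, poorly translated RNAs tend to be found.

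The LINC-named genes did not form a uniform class in the annotation. GENCODE release 29 on GRCh38 listed all 314 identifiers, typed 261 as lincRNA, 21 as processed transcript, 12 as antisense, 11 as a kind of pseudogene and 3 as protein-coding, and already used a LINC symbol for 244. Their summed exon length had a median of 2330.5 nt (range 194 to 15452), against 4427.5 nt for all genes tested, and they had a median of 4 exon blocks against 9. GC content did not set them apart, with medians of 48.7% and 48.8%. Counting could not assign all of their reads with certainty. A total of 91 overlapped another gene in genome position, 73 of them on the opposite strand, and 35 had a near copy, defined as at least 97% identity over at least 150 bases of another gene's transcript, which left 208 free of both. LINC01605 is the symbol of 2 identifiers in the set, and values given under that name are for ENSG00000253414. The other identifier, ENSG00000253161, had 2.33 to 3.21 CPM (counts scaled to library size and a TMM factor) in input. It had 2.87 to 3.25 in mock and 1.95 to 4.16 in PEG. By edgeR's quasi-likelihood test it was called in none of the comparisons (log2 fold change 0.08 in mock against input, adjusted p = 0.761, and 0.17 in PEG against mock, adjusted p = 0.593).

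Because the libraries were made from poly(A) RNA, the 3′ ends of the transcripts bear on which LINC RNAs could be caught. The last 100 bases of the longest annotated transcript, read from the GENCODE transcripts, are shown for 3 members that the comparisons below turn on, with the polyadenylation hexamers AATAAA and ATTAAA in capitals where they fall in the last 50 bases. LINC03061 was among the largest falls in PEG, LINC02434 was an abundant member raised in PEG, and LINC01711 was higher than input in all 4 pellets. They lie at chr13:109273739-109273838 (+), chr4:188161040-188161139 (+) and chr20:58635639-58635738 (+) of GRCh38, in that order of naming.
LINC03061: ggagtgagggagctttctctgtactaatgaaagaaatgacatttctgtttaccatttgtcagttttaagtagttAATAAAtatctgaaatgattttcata
LINC02434: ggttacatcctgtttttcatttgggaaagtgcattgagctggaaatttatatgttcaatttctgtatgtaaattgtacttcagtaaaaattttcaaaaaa
LINC01711: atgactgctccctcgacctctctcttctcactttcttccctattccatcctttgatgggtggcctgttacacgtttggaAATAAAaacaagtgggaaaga
LINC03061 and LINC01711 held the hexamer AATAAA, and LINC02434 held neither hexamer. The transcript strand was searched and no other motif was. Of the 314 members, 185 (58.9%) held a hexamer in the last 50 bases, against 11847 of 16529 genes with a transcript sequence (71.7%). The median log2 fold change of PEG against mock was 0.21 over the 185 members with a hexamer and 0.18 over the 129 without, and that of mock against input was -0.15 and -0.10, so the groups were close together in both comparisons.

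Total counts ranged from 15341973 to 46939993 per library and were lowest in PEG (15341973 to 25675182). Members took 0.193 to 0.204% of the counts in PEG and 0.212 to 0.259% elsewhere, with a median count per member of 29 to 116.5. Libraries with replicate number 1 stood apart. Over the members, log2 CPM of replicate 1 correlated with replicates 2 and 3 of its group at 0.951 to 0.964, whereas replicates 2 and 3 correlated at 0.982 to 0.990. Counts of members called are therefore also given without the libraries numbered 1, an alternative chosen after the data were seen. Mesenchymal markers, which an osteosarcoma line should carry, summed to 2380 to 3480 CPM, with COL1A2 at most 0.314 CPM and TWIST1 at 0 in 7 libraries, while hepatocyte markers summed to 6.82 to 32.8 CPM, epithelial markers to 20.3 to 56.0 CPM and blood markers to 0.112 to 0.511 CPM. ALB was at 0 in 13 libraries, TTR in 14, APOB in all 15 and AFP in 6. SERPINA1 was present in every library, at 6.62 to 31.9 CPM, and so was APOA1, at 0.152 to 0.824 CPM. Of the epithelial markers, CLDN4 had 11.7 to 46.5 CPM and EPCAM 5.16 to 14.3 CPM in every library. CDH1 had at most 1.28 CPM and KRT19 at most 0.118 CPM.

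LINC RNAs were low in abundance, with a few exceptions. Levels are given as TMM-scaled CPM, a gene's count per 1e6 of its library's scaled size. That size is the library's count over the genes tested, multiplied by its TMM factor. The marker levels above were scaled by total counts over all genes, without that factor. Levels of different genes are compared per kb of exon. Over the 15 libraries the members had a median of 1.18 CPM per kb (0.109 to 49.7), against 4.36 for all genes tested, and 254 of 314 lay under that median. The 10 members with most reads held 41.5% of all member counts, 184 members averaged under 100 counts per library, and 12 averaged 1000 or more.

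**Figure D1:**
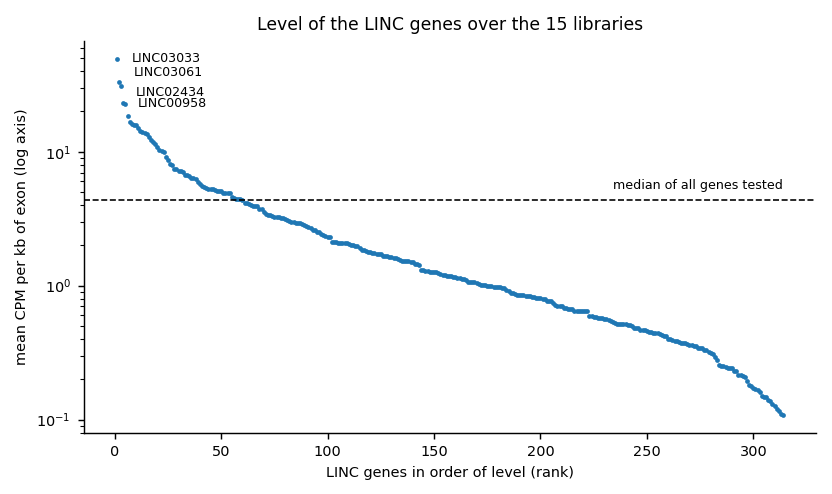
Mean level of each of the 314 LINC genes over the 15 libraries (CPM per kb of exon, log axis) in order of rank, with the median of all genes tested as a dashed line. A few members lie far above the rest, led by LINC03033, and 254 lie under the dashed line.

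LINC03033, listed as FLJ22447 in GENCODE 29 and described in tumour-associated fibroblasts, was the highest member per kb. Its levels were 121, 183 and 163 CPM in input, 84.8, 142 and 131 in mock, 68.8, 133 and 125 in dsRNA, 76.7, 139 and 132 in silvestrol and 143, 177 and 158 in PEG, in the order of replicates 1, 2 and 3. Replicate 1 was the lowest library of every condition, and the input and mock ranges overlapped. Per kb this was 58.7 ± 12 CPM in input, 45 ± 11 in mock and 60.1 ± 6.4 in PEG (SD, n = 3). PEG exceeded mock by 0.49 on the log2 scale (SE 0.18, adjusted p = 0.0335, edgeR's quasi-likelihood test), a call that was lost without PEG replicate 2 or PEG replicate 3 (adjusted p up to 0.122) and that was 0.02 with scaling by library size only. Its transcripts have a near copy in OR52N1 and overlap LINC01303 in position.

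LINC03061, an RNA of a single exon, was next in level and behaved differently. It stood at 140, 149 and 132 CPM in input, 159, 184 and 164 in mock, 178, 193 and 157 in dsRNA, 171, 183 and 177 in silvestrol, and only 51.1, 39.7 and 30.9 in PEG. All 3 PEG libraries lay under every other library, and mock did not overlap input, although that difference did not pass (0.30, SE 0.11, adjusted p = 0.0731). PEG was 3.96-fold lower than mock (log2 fold change -1.98, SE 0.18, adjusted p = 1.44e-05) and 3.35-fold lower than input (-1.74, SE 0.18, adjusted p = 0.000282), and no single library decided either call. Reads of this RNA could be shared with its near copy SLC44A3-AS1.

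LINC02434 and LINC00958 followed in level. LINC02434 had 11.0, 24.3 and 24.2 CPM in input, 10.3, 19.1 and 16.9 in mock and 31.6, 45.2 and 43.9 in PEG, with PEG above every library of both groups and replicate 1 lowest in each. PEG exceeded mock by 1.46 (SE 0.22, adjusted p = 0.000282). LINC00958, an RNA reported to be raised in several tumours, was steady across replicates, at 75.1, 76.8 and 78.7 CPM in input, 62.0, 58.8 and 55.6 in mock and 75, 80.6 and 73.3 in PEG. It was 1.28-fold lower in mock than in input (log2 fold change -0.35, SE 0.10, adjusted p = 0.0298), a call lost without input 2, input 3, mock 2 or mock 3 (adjusted p up to 0.124), and PEG exceeded mock by 0.45 (SE 0.11, adjusted p = 0.00604) but stood at -0.02 with scaling by library size only.

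The first question was which LINC RNAs sedimented from an extract that had received no stress agent. In mock against input, 22 of 314 members (7.01%) were higher and 38 (12.1%) lower at an adjusted p under 0.05, while 17.6% and 15.8% of all 16612 genes were. The median log2 fold change was -0.14 over the members and 0.00 over all genes, and the median standard error was 0.25 over the members against 0.17. A change of at least 1 on the log2 scale was reached by 8 of the 22 and 4 of the 38, which is 2.55% and 1.27% of the members, against 3.04% and 1.36% of all genes. These counts depended on how replicates were handled. With the replicate number as a block, 64 members were higher and 79 lower, against 32.5% and 30.1% of all genes, and without the libraries numbered 1 the counts were 63 and 85, against 31.9% and 30.6%. Single libraries moved them too. Without input 2, 12 members were higher and 10 lower, against 10.2% and 11.6% of all genes in that fit. Without input 3 there were 7 and 16 (10.5% and 11.1% of all genes), without mock 2 there were 8 and 13 (10.1% and 7.4%) and without mock 3 there were 10 and 5 (8.04% and 6.12%). Without mock 1, 34 were higher (18.5% of all genes). With library size alone as the scale, 28 were higher and 25 lower, against 19.6% and 13.9% of all genes.

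The largest rise in mock among members whose groups did not overlap was that of LINC02990, a low RNA of 544 nt and 3 exon blocks. It had 0.584, 1.16 and 1.49 CPM in input, 1.56, 3.55 and 3.45 in mock and 0.977, 1.14 and 0.446 in PEG, a rise of 1.36 in mock (SE 0.41, adjusted p = 0.037) and a log2 fold change of -1.60 in PEG against mock (SE 0.40, adjusted p = 0.0056). The highest input library lay just under the lowest mock library, and the mock call was lost without any library but mock 1 (adjusted p up to 0.121) and with a GC offset, where the rise was 1.11. LINC02593, an RNA of a single exon on chromosome 1, had 6.06, 8.32 and 7.86 CPM in input and 12.7, 17.2 and 18.1 in mock. Every mock library lay above every input library, and the rise was 1.13 on the log2 scale (SE 0.19, adjusted p = 0.00567). LINC00342 had 8.75, 11.4 and 9.46 CPM in input and 15.5, 23.6 and 22.7 in mock, also without overlap, a rise of 1.09 (SE 0.19, adjusted p = 0.00705), and is named here for its larger change in dsRNA. Its reads could be shared with a near copy, APPAT. LINC01711, read from a single exon on chromosome 20, had 4.40, 7.85 and 7.83 CPM in input and 15.2, 14.1 and 15.3 in mock, a rise of 1.17 (SE 0.22, adjusted p = 0.00829). LINC00205 rose by 1.14 (SE 0.22, adjusted p = 0.00935), from 1.98, 2.63 and 3.54 CPM to 5.87, 5.64 and 6.29. None of the calls of LINC02593, LINC00342, LINC01711 and LINC00205 was lost when any single library was left out.

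The falls in mock were led by RNAs of modest level. LINC01116, reported to be raised in several cancers and overlapped by LINC01117 on the opposite strand, had 16.3, 13.6 and 14.8 CPM in input and 8.12, 7.13 and 6.72 in mock, so that every mock library was lower, and it was 1.98-fold lower (log2 fold change -0.98, SE 0.14, adjusted p = 0.00403). LINC00221, which lies at the immunoglobulin heavy chain locus on chromosome 14, had 28.2, 18.8 and 20.9 CPM in input and 12.5, 9.46 and 10.5 in mock (-1.02, SE 0.19, adjusted p = 0.00761). LINC00460 had 6.91, 11.8 and 10.6 CPM in input and 3.45, 5.94 and 4.62 in mock (-1.03, SE 0.26, adjusted p = 0.022), a call that was lost without input 2, input 3 or mock 3 (adjusted p up to 0.0784). LINC01173, at 1.93, 1.74 and 1.27 CPM in input and 0.623, 0.869 and 0.718 in mock, was 2.09-fold lower (-1.07, SE 0.25, adjusted p = 0.0174), a call lost without input 2 or mock 3 (adjusted p up to 0.0695).

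The same question was put to dsRNA and silvestrol pellets, and these comparisons share the 3 input libraries with that of mock, so their values are given side by side and not as separate evidence. In dsRNA, 34 members (10.8%) were higher and 46 (14.6%) lower than input, against 21.1% and 19.6% of all genes, with a median of -0.18 over the members and 0.00 over all genes. In silvestrol, 31 (9.87%) were higher and 37 (11.8%) lower, against 19.4% and 18.1%, with a median of -0.13 over the members and 0.00 over all genes. With the replicate block the counts were 64 and 86 for dsRNA (31.0% and 29.1% of all genes) and 66 and 83 for silvestrol (30.8% and 28.7%). Without the libraries numbered 1 they were 54 and 98 for dsRNA (33.6% and 33.2%) and 61 and 93 for silvestrol (32.9% and 31.9%). Single libraries also moved them, and the shares of all genes in the same fits are given in parentheses. For dsRNA the counts were 19 and 21 without input 2 (15% and 15.5%), 15 and 25 without input 3 (15.3% and 15.2%), 16 and 26 without dsRNA 2 (15.4% and 11.8%) and 15 and 21 without dsRNA 3 (14.2% and 11.9%). For silvestrol they were 17 and 19 without input 2 (12.9% and 14.4%), 10 and 22 without input 3 (13.2% and 13.9%), 12 and 17 without silvestrol 2 (13.3% and 10.3%) and 11 and 23 without silvestrol 3 (13.1% and 11.1%).

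Members that led the mock comparison had like values in these pellets. LINC02593 stood at 15.4, 16.9 and 18.9 CPM in dsRNA and 14.9, 18.0 and 19.3 in silvestrol, all above input, with rises of 1.23 and 1.25 (adjusted p = 0.0025 and 0.00264). LINC00342 stood at 17.6, 26.5 and 23.7 CPM in dsRNA and 17.8, 25.6 and 22.7 in silvestrol, with rises of 1.23 and 1.18. LINC01116 stood at 7.30, 6.80 and 7.94 CPM in dsRNA and 6.71, 7.50 and 7.44 in silvestrol, all below input, with log2 fold changes of -0.97 and -1.01. LINC00221 stood at 9.93, 8.95 and 9.38 CPM in dsRNA and 9.56, 9.43 and 10.5 CPM in silvestrol, with log2 fold changes of -1.22 and -1.16. LINC00513, a low RNA, was among the largest falls in dsRNA, at 0.246, 0.307 and 0.305 CPM against 0.898, 0.890 and 0.609 in input (log2 fold change -1.29, SE 0.29, adjusted p = 0.0098).

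**Figure D2:**
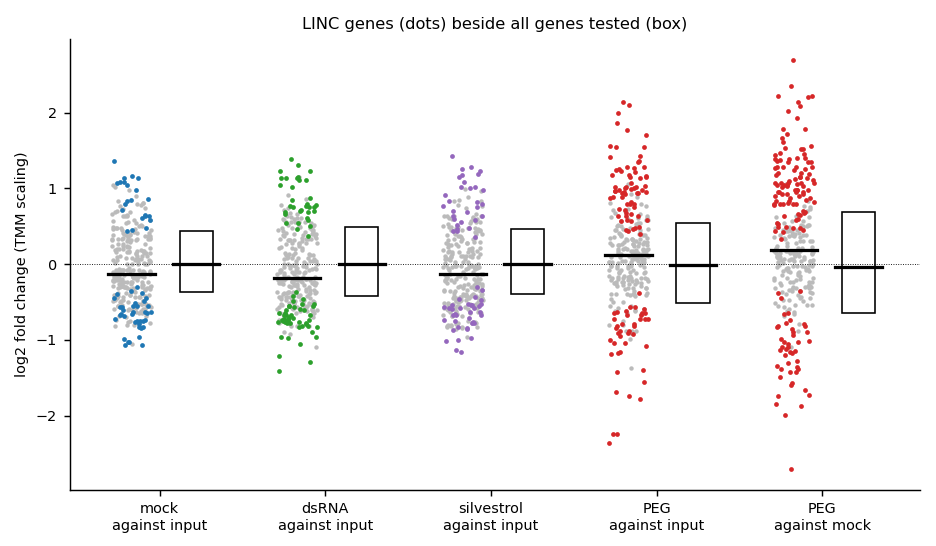
Log2 fold change of each of the 314 LINC genes (dots, coloured where the adjusted p was under 0.05) with their median (bar), beside the median and quartiles of all 16612 genes tested (box), in 5 comparisons with TMM scaling. The member medians are -0.14, -0.18 and -0.13 in mock, dsRNA and silvestrol against input and 0.12 and 0.18 in PEG against input and mock. With scaling by library size only the PEG medians are -0.23 and -0.27, under 0 but above those of all genes.

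Set directly against mock without a replicate block, no member was called in dsRNA or silvestrol. The median standard error over the members was 0.23 in each comparison. No gene of any kind passed in either comparison (0.0% in each) by edgeR's quasi-likelihood test. At an unadjusted p under 0.05, 5 members (1.59%) differed in dsRNA and 0 in silvestrol, against 374 (2.25%) and 35 (0.211%) of all genes. DESeq2 called 0 members in both, and of all genes it called 0.391% lower in dsRNA. Genes to which DESeq2 gave no adjusted p count as not called here. Among the named members, 45 had a DESeq2 result to compare in dsRNA and 55 in silvestrol. The member medians were -0.02 in each. With the replicate block, silvestrol against mock still gave 0 members, with 0.012% of all genes higher and 0.0% lower, whereas dsRNA against mock gave 0 members higher and 3 lower, against 0.15% and 2.65% of all genes. These 3 were LINC00467, LINC01521 and LINC01719. LINC00467, whose transcript encodes a small mitochondrial peptide, had 3.81, 4.07 and 4.62 CPM in mock and 2.56, 3.28 and 3.22 in dsRNA, so the groups did not overlap, and the blocked adjusted p was 0.0427 at a log2 fold change of -0.46. LINC01521 had 12.4, 11.6 and 13.2 CPM in mock and 11.5, 8.88 and 8.58 in dsRNA (-0.36, blocked adjusted p = 0.0123), and LINC01719 had 7.76, 6.01 and 6.26 against 6.11, 4.16 and 4.66 (-0.42 without the block, blocked adjusted p = 0.0124). Each was lower in dsRNA than in the mock library of the same number. Without the libraries numbered 1 and without a block, 1 member, LINC01521, was lower, against 1.16% of all genes.

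PEG pellets had another composition. In PEG against input, 69 members (22.0%) were higher and 42 (13.4%) lower, against 25.5% and 25.9% of all genes, with a median of 0.12 over the members and -0.01 over all genes. At least 1 on the log2 scale was reached by 32 of the rises and 16 of the falls, 10.2% and 5.10% of the members against 9.74% and 7.45% of all genes. Without the libraries numbered 1, 85 were higher and 71 lower, against 34.9% and 35.6%. Leaving out input 2 gave 23 lower (22.4% of all genes), leaving out PEG 2 gave 35 higher and 23 lower (17.7% and 20.9%), and leaving out PEG 3 gave 39 and 24 (18% and 21.1%). These counts moved with the scaling. TMM factors of the PEG libraries were 0.789 to 0.870 against 0.967 to 1.09 elsewhere, and with library size alone 29 members were higher and 81 lower, against 14.1% and 41.5% of all genes. The whole table moved with it, from a median of -0.01 to -0.35 over all genes, and the members stood 0.125 above it by TMM and 0.123 above it by library size.

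PEG against mock compares pellets that differ in the crowding agent alone, and shares the mock libraries with the comparisons above. Here 103 members (32.8%) were higher in PEG and 46 (14.6%) lower, against 31.3% and 32.2% of all genes, so the share higher was near the background while the share lower was under it. These shares cover only genes that reached 10 counts in PEG. Of LINC-named genes, 69 passed in every condition but PEG and were left out, against 2 in PEG alone. That limit also holds for PEG against input. The median standard error was 0.26 over the members against 0.17 over all genes. The member median was 0.18 and that of all genes -0.03. At least 1 on the log2 scale was reached by 59 of the rises and 30 of the falls, 18.8% and 9.55% of the members against 16.9% and 12.5% of all genes, and member values ran from -2.70 to 2.69. Without the libraries numbered 1, 116 were higher and 63 lower, against 37.2% and 37.8%. Without PEG 3, 30 were lower, against 25.7% of all genes. With scaling by library size only, 48 were higher and 96 lower, against 18.8% and 49.8% of all genes, whose median moved from -0.03 to -0.49. The members stood 0.214 above all genes by TMM and 0.224 above them by library size. Among the 208 members with no overlapping gene and no near copy, 70 were higher and 24 lower, with a median of 0.27, and among the 244 already named LINC in GENCODE 29, 76 and 37 were, with a median of 0.17.

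The largest rises in PEG were those of low RNAs. LINC01191, which overlaps an unnamed gene on its own strand, had 0.287, 0.993 and 0.775 CPM in mock and 1.88, 6.43 and 5.15 in PEG, on 12, 40 and 27 counts and 25, 130 and 104 counts, and was 6.47-fold higher (log2 fold change 2.69, SE 0.47, adjusted p = 0.000715). LINC00326 had 0.192, 0.820 and 0.747 CPM in mock and 2.33, 3.31 and 3.56 in PEG (2.36, SE 0.41, adjusted p = 0.000646). For both, replicate 1 was the lowest library of its group and the groups did not overlap. LINC01357 had 0.671, 0.869 and 0.977 CPM in mock and 2.78, 4.50 and 4.46 in PEG (2.22, SE 0.27, adjusted p = 6.6e-05), and LINC00853 had 0.719, 1.04 and 1.52 in mock and 5.03, 4.99 and 5.05 in PEG (2.21, SE 0.27, adjusted p = 6.79e-05). LINC00853 was nearly level across the PEG libraries. LINC01357 and LINC00853 each overlap a gene on the opposite strand, LINC01356 and CYP4A22-AS1.

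The largest fall in PEG was that of LINC02916, a spliced RNA of 760 nt on chromosome 10. It had 10.0, 5.96 and 7.84 CPM in mock, on 418, 240 and 273 counts, and 1.58, 1.09 and 0.743 in PEG, on 21, 22 and 15 counts. All 3 PEG libraries lay under every library of the other conditions, and PEG was 6.52-fold lower than mock (log2 fold change -2.70, SE 0.30, adjusted p = 4.63e-05) and 5.12-fold lower than input (-2.36, SE 0.29, adjusted p = 0.000465). LINC03061 was next, as described above. LINC00641 had 4.00, 4.35 and 5.86 CPM in mock and 1.8, 0.890 and 0.941 in PEG (-1.88, SE 0.30, adjusted p = 0.000364), and LINC02604 had 3.62, 5.64 and 5.86 against 1.88, 1.14 and 0.941 (-1.84, SE 0.30, adjusted p = 0.000416). Neither pair of groups overlapped. Against input, LINC00508, the shortest member at 194 nt, was 4.74-fold lower in PEG (-2.25, SE 0.34, adjusted p = 0.00104), at 4.49, 3.17 and 3.68 CPM in input and 1.20, 0.593 and 0.446 in PEG, and it overlaps LINC00507 on the opposite strand.

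**Figure D3:**
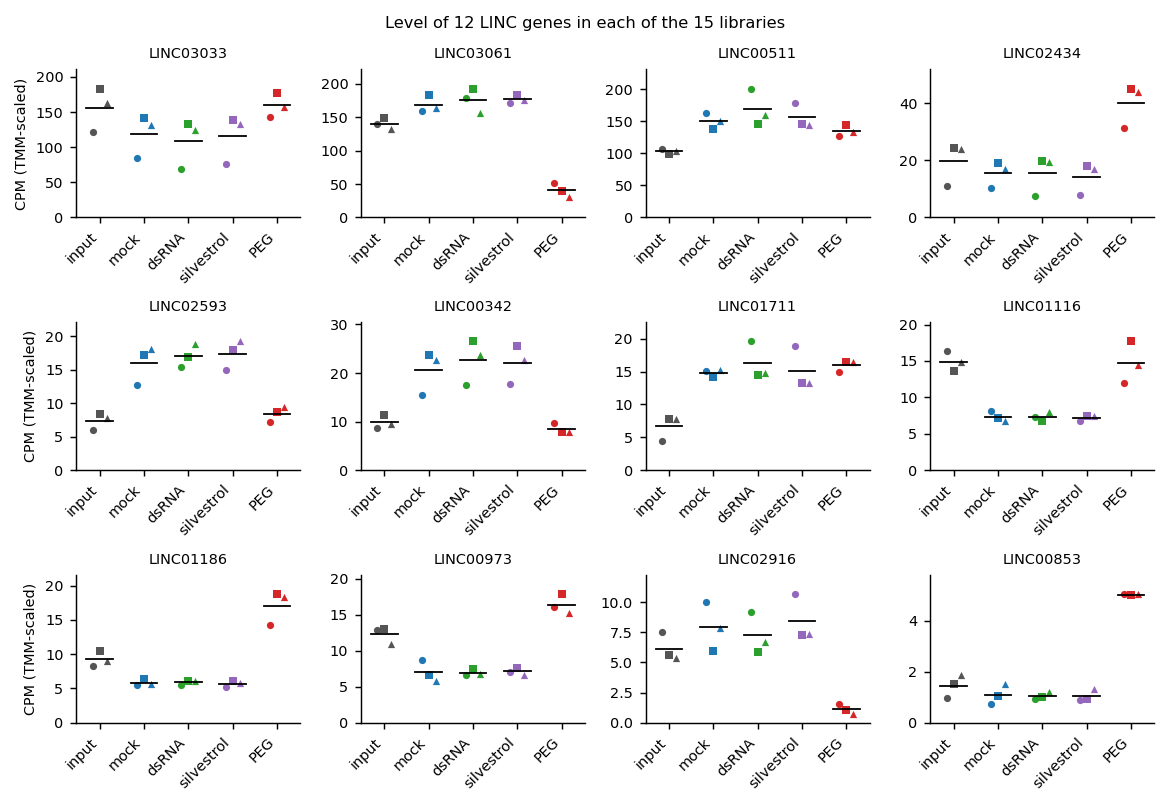
Level of 12 LINC genes (TMM-scaled CPM, axis from 0) in each of the 15 libraries, grouped by condition, with replicates 1, 2 and 3 as circles, squares and triangles and the mean of each group as a bar. LINC03061 and LINC02916 are low in PEG alone, LINC02593 and LINC00342 are high in mock, dsRNA and silvestrol, and LINC01116, LINC01186 and LINC00973 are lowest in those 3 pellets.

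Across all 4 comparisons with input, 27 members (8.6%) were called each time, against 2890 of all genes (17.4%). Of these, 7 (2.23% of the members) were higher in all 4 pellets, against 4.2% of all genes, and 8 (2.55%) lower in all 4, against 3.13%. A further 6 (1.91%) were lower in mock, dsRNA and silvestrol but higher in PEG, against 5.69%, and 6 (1.91%) higher in those 3 but lower in PEG, against 4.37%. Each of these shares lay under that of all genes. The median standard error in these comparisons was 0.25 to 0.26 over the members, against 0.17 to 0.18 over all genes. The part of this difference in the lower shares was not tested. The comparisons share the input libraries, so these counts describe the members and test nothing.

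The 7 members higher in every pellet were LINC00475, LINC00511, LINC00680, LINC00839, LINC01711, LINC01977 and LINC02012. LINC00511, reported to bind the chromatin regulator EZH2 and to be raised in tumours, was the most abundant, at 107, 99.6 and 103 CPM in input, 163, 138 and 151 in mock, 201, 146 and 159 in dsRNA, 179, 146 and 145 in silvestrol and 128, 144 and 134 in PEG. Every pellet library lay above every input library. The rises were 0.58 in mock, 0.75 in dsRNA, 0.63 in silvestrol and 0.43 in PEG (adjusted p = 0.00814, 0.00597, 0.00725 and 0.0124), of which the last was lost without PEG 2, input 2 or input 3 (adjusted p up to 0.0623) and was 0.09 with library size alone. LINC01711 had a larger change and kept all 4 calls whichever library was left out, at 19.6, 14.4 and 14.8 CPM in dsRNA, 18.9, 13.3 and 13.3 in silvestrol and 15, 16.5 and 16.4 in PEG, rises of 1.31, 1.19 and 1.28 (adjusted p = 0.00507, 0.00864 and 0.00115). PEG and mock differed by 0.18 for this RNA (SE 0.13, adjusted p = 0.241), or by -0.29 with library size alone. LINC02012, a low RNA of a single exon, also kept all 4 calls, with rises of 1.07, 1.12, 1.01 and 1.22 from 0.628, 0.828 and 0.885 CPM in input. LINC00475 rose most in PEG, to 6.99, 8.16 and 9.90 CPM from 2.11, 3.29 and 2.35 in input (1.70, SE 0.22, adjusted p = 0.000511), and PEG exceeded mock by 0.92 (SE 0.20, adjusted p = 0.00235). Its call in mock against input was lost without input 1, input 3, mock 2 or mock 3 (adjusted p up to 0.107).

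The 8 members lower in every pellet were LINC00052, LINC00221, LINC00508, LINC00674, LINC00888, LINC01278, LINC01515 and LINC02864. LINC00674, annotated as a transcribed pseudogene of 734 nt, had 14.5, 13.9 and 15.5 CPM in input, 10.7, 8.79 and 9.62 in mock, 9.19, 8.34 and 9.33 in dsRNA, 9.97, 8.44 and 8.54 in silvestrol and 5.26, 5.44 and 5.35 in PEG. No pellet library reached the input range, and PEG was under the other pellets, by -0.78 against mock (SE 0.16, adjusted p = 0.00177). Its log2 fold changes against input were -0.55, -0.67, -0.67 and -1.39, of which the mock call was lost without input 3, mock 2 or mock 3 (adjusted p up to 0.0681). LINC01278 had 44.6, 47.5 and 44.5 CPM in input, 28.1, 33.4 and 31.9 in mock and 24.0, 29 and 27.1 in PEG, with log2 fold changes of -0.51 and -0.72 (adjusted p = 0.0121 and 0.00148), the first lost without mock 3 (adjusted p = 0.0503). LINC00888 had 34.2, 30.0 and 26.6 CPM in input and 21.2, 17.2 and 18.2 in mock (-0.64, adjusted p = 0.013), a call lost without mock 2 or mock 3 (adjusted p up to 0.0602), and its transcript spans the small nucleolar RNA gene SNORA63E.

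The 6 members lower in mock, dsRNA and silvestrol but higher in PEG were LINC00973, LINC01186, LINC01605, LINC01918, LINC02055 and LINC02762. LINC01605 had 8.98, 9.13 and 9.63 CPM in input, 4.19, 5.56 and 4.14 in mock, 3.82, 5.64 and 4.27 in dsRNA, 3.91, 4.81 and 4.98 in silvestrol and 14.9, 20.7 and 18.7 in PEG. The 3 ranges, pellets without PEG, input and PEG, did not touch. It was 1.94-fold lower in mock than in input and 4.07-fold higher in PEG than in mock (log2 fold change 2.03, SE 0.18, adjusted p = 1.41e-05), and all 4 calls against input held in every fit that left out 1 library. LINC01186 had 8.30, 10.5 and 8.96 CPM in input, 5.44, 6.38 and 5.66 in mock and 14.2, 18.8 and 18.3 in PEG, and PEG exceeded mock by 1.62 (SE 0.16, adjusted p = 2.09e-05). LINC02762 had 10.5, 11.0 and 10.8 CPM in input, 6.37, 7.40 and 6.49 in mock and 14.4, 18.0 and 17.3 in PEG (1.36 against mock, SE 0.15, adjusted p = 3.75e-05), and LINC01918 had 7.05, 7.43 and 7.69, then 3.67, 4.92 and 4.19, then 10.1, 13.1 and 12.1 (1.53, SE 0.17, adjusted p = 4.88e-05). LINC00973 exceeded mock by 1.28 in PEG (SE 0.18, adjusted p = 0.000198) and LINC02055 by 0.98 (SE 0.13, adjusted p = 0.000147). Against input some calls rested on single libraries. The mock calls of LINC01918 and LINC02762 were lost without mock 3 (adjusted p = 0.0555 and 0.053), that of LINC01186 without input 2 or mock 3 (up to 0.0743), that of LINC00973 without input 2, mock 2 or mock 3 (up to 0.0697) and that of LINC02055 without input 2, input 3, mock 2 or mock 3 (up to 0.0831). The PEG against input call of LINC00973 was lost without any library but input 1 (up to 0.124) and that of LINC02055 without PEG 2, PEG 3 or input 3 (up to 0.0944). For all 6, the PEG against mock call held without any 1 library.

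The 6 members higher in mock, dsRNA and silvestrol but lower in PEG were LINC00174, LINC00639, LINC01297, LINC01547, LINC02693 and LINC02878. LINC02693, listed as C17orf51 and protein-coding in GENCODE 29, had 38.4, 37.6 and 37.5 CPM in input, 59.1, 47.1 and 44.5 in mock, 66.4, 49.2 and 45.7 in dsRNA, 61.1, 45.5 and 48.1 in silvestrol and 26.1, 21.1 and 23.3 in PEG. Replicate 1 was the highest library of every pellet, and PEG lay under input. PEG was 2.03-fold lower than mock (log2 fold change -1.02, SE 0.15, adjusted p = 0.000282), and the mock rise of 0.44 (SE 0.13, adjusted p = 0.0361) was lost when any single library was left out (adjusted p up to 0.12). LINC00174 had 3.64, 5.78 and 5.15 CPM in input, 6.64, 7.97 and 7.73 in mock and 3.76, 1.53 and 1.19 in PEG, so the input and PEG ranges overlapped, and PEG was 3.33-fold lower than mock (-1.74, SE 0.35, adjusted p = 0.00156). Its PEG against input call was lost without PEG 2, PEG 3, input 2 or input 3 (adjusted p up to 0.118) and its mock call without any library but mock 1 (up to 0.131). LINC01547, with a GC content of 62.4%, had 4.76, 5.82 and 6.22 CPM in input, 8.19, 7.50 and 10.1 in mock and 3.68, 3.02 and 3.17 in PEG (-1.30 against mock, SE 0.19, adjusted p = 0.000205). Its rises of 0.59 in dsRNA and 0.52 in silvestrol were -0.002 and -0.04 once a GC offset was fitted. LINC02878 was 2.61-fold lower in PEG than in mock (-1.38, SE 0.22, adjusted p = 0.000355), and LINC00639 and LINC01297 by 3.32-fold and 2.60-fold. The PEG against mock call of all 6 held without any 1 library. Over the 27 members of the 4 groups, 3 kept all 4 calls against input whichever library was left out (LINC01605, LINC01711 and LINC02012), and 24 lost at least 1 call, with an adjusted p of up to 0.173 for LINC01297 in mock.

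**Figure D4:**
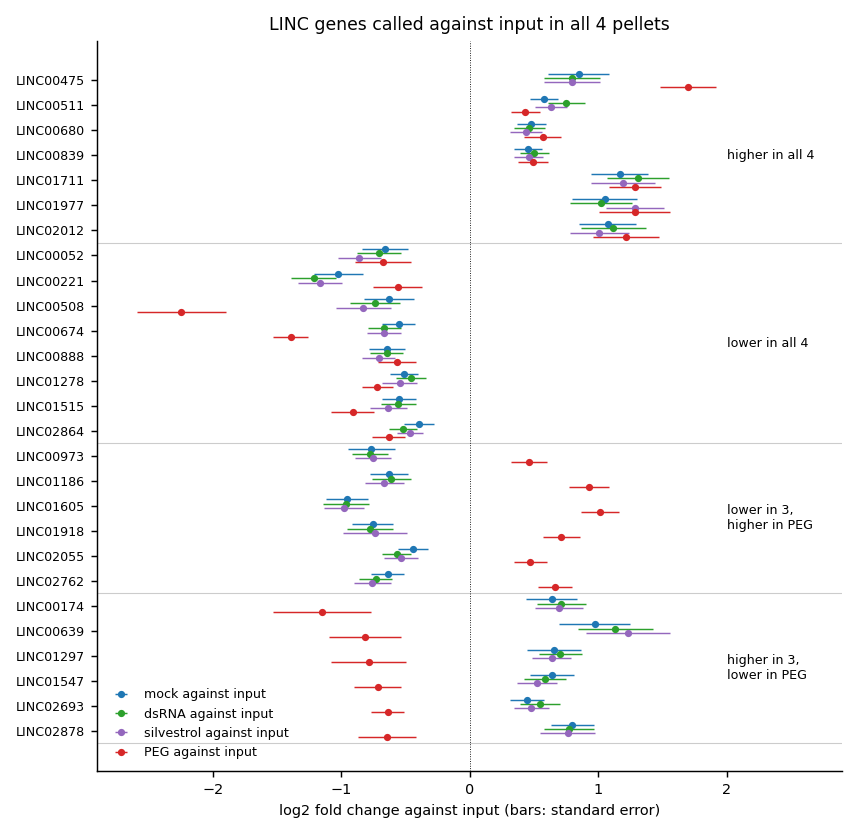
Log2 fold change against input with its standard error in mock, dsRNA, silvestrol and PEG for the 27 LINC genes called in all 4 comparisons, in 4 groups by direction. In 2 of the groups, of 6 genes each, PEG lies on the other side of 0 from the 3 other pellets. For LINC01547 the dsRNA and silvestrol values turn to -0.002 and -0.04 with a GC offset.

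Members with a role in the literature followed no single direction. The members on a list of LINC RNAs with a described role were LINC00467, LINC00511, LINC00662, LINC01116 and LINC01138, and LINC00460 was named for its change. LINC00467 was higher in PEG than in mock by 0.81 (SE 0.18, adjusted p = 0.00319), at 5.79, 8.01 and 7.08 CPM in PEG. LINC00662, a tumour-associated RNA with many exons, had 83.9, 103 and 102 CPM in input, 67.4, 82.8 and 73.3 in mock and 121, 171 and 152 in PEG, with PEG above every library of both groups. Mock stood at -0.34 against input (SE 0.13, adjusted p = 0.0831, or 0.00165 with the replicate block), and PEG exceeded mock by 1.07 (SE 0.15, adjusted p = 0.000157). LINC01116 overlapped the input range in PEG, at 12, 17.7 and 14.5 CPM, and exceeded mock by 1.08 (SE 0.18, adjusted p = 0.000458) while PEG against input gave 0.03 (SE 0.17, adjusted p = 0.884). LINC00460 exceeded mock by 1.46 in PEG (SE 0.22, adjusted p = 0.000277), at 10.5, 15.1 and 11.2 CPM. LINC01138, reported to bind the methyltransferase PRMT5, gave 0.39 in PEG against mock (SE 0.16, adjusted p = 0.0544), 0.046 with the replicate block, turned to -0.07 with library size alone, and its reads could be shared with several near copies. LINC00511 gave -0.08 in that comparison (SE 0.12, adjusted p = 0.558), and -0.55 with library size alone.

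Length and base composition moved with the changes of the LINC genes. In PEG against mock, the 62 members of at most 1000 nt had 30 higher and 7 lower, at a median of 0.59 on the log2 scale, the 73 of 1000 to 2000 nt a median of 0.50 with 34 and 4, the 111 of 2000 to 4000 nt a median of 0.10 with 25 and 16, and the 68 of over 4000 nt a median of -0.09 with 14 and 19. Short members therefore gained more than long ones. From the shortest to the longest bin, 48.4%, 46.6%, 22.5% and 20.6% of the members were higher, against 50.8%, 58.8%, 43.5% and 17.8% of all genes, and 11.3%, 5.48%, 14.4% and 27.9% were lower, against 10.6%, 10.1%, 15.2% and 47.4%. All genes tested gave medians of 0.79, 0.84, 0.33 and -0.39 in the same bins, so short members stood under short genes in general and the longest members above the longest genes. Over the 314 members the log2 fold change correlated with length at a Spearman's rho of -0.36 (Pearson's r with length -0.23), and over all genes at -0.48. The mock pellet against input leaned the other way, with member medians of -0.31, -0.21, -0.08 and 0.08 from the shortest to the longest bin. All genes leaned likewise, with medians of -0.14, -0.17, -0.09 and 0.08. The rho was 0.18 over the members and 0.18 over all genes. These are correlations across genes that share their libraries, and the part of length in the changes of any member was not tested.

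GC content went with the changes against input. In mock, the 40 members of at most 40% GC had a median of -0.33 with 0 higher and 9 lower, the 212 of 40 to 55% a median of -0.14 with 14 and 26, and the 62 of over 55% a median of 0.27 with 8 and 3. At most 40% GC, 0.0% of the members were higher and 22.5% lower, against 6.17% and 24.6% of all genes. From 40 to 55% the shares were 6.6% and 12.3%, against 10.9% and 18.7%. The medians of all genes in these 2 bins were -0.21 and -0.10. In dsRNA and silvestrol the members of over 55% GC had 17 and 12 rises and 2 and 1 falls. With an offset for GC fitted to all genes, the over 55% bin had 3 higher and 9 lower in mock, 3 and 9 in dsRNA and 3 and 11 in silvestrol, with medians of -0.11, -0.19 and -0.10. Over 55% GC, 12.9% of the members were higher in mock, 27.4% in dsRNA and 19.4% in silvestrol, against 35.7%, 42.2% and 40.2% of all genes, and with the offset 4.84% in each, against 10.8%, 12.6% and 11.6%. The shares lower there were 4.84%, 3.23% and 1.61%, against 6.24%, 6.24% and 6.5%, and with the offset 14.5%, 14.5% and 17.7%, against 17.8%, 20.1% and 19.7%. All genes in that bin had a median of 0.42 in mock, and 0.00 with the offset. LINC02593, at 61.7% GC, gave 1.13 without the offset and 0.64 with it in mock (adjusted p = 0.0164), and LINC01711, at 59.4% GC, gave 1.17 and 0.79 (adjusted p = 0.0186), so both kept their call at a smaller size. LINC00342, at 41.9% GC, gave 1.21 with the offset. In PEG against input the rho with GC was 0.28 over the members and 0.30 over all genes. In PEG against mock it was 0.06 over the members, but the bins were uneven. Member medians were 0.51, 0.15 and 0.36 from the lowest to the highest bin, against -0.19, 0.04 and -0.08 over all genes. At most 40% GC, 47.5% of the members were higher and 10.0% lower, against 25.3% and 37.8% of all genes. With the offset the medians there were 0.65 and -0.04.

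In PEG against mock the median of the LINC genes was 0.18. It lay under the medians of genes once named LINC and of small nucleolar RNA host genes, and close to that of antisense RNAs. It was above that of protein-coding genes, and the lists were not tested against each other. Median lengths were 2330.5 nt for LINC genes, 3000 nt for genes once named LINC, 2217 nt for antisense RNAs and 2627 nt for the host genes. They were 5075 nt for protein-coding genes, and 17136 and 3631 nt for the nuclear and cytoplasmic RNAs named below. The part of length in these differences was not tested. Genes once named LINC that now carry another symbol (121 tested) had 48 higher (39.7%) and 23 lower (19.0%) with a median of 0.43. Antisense RNAs (493) had 166 (33.7%) and 88 (17.8%) with a median of 0.21. Host genes of small nucleolar RNAs (SNHG, 25) had 20 (80.0%) and 2 (8.0%) with a median of 1.13. Of all genes, 31.3% were higher and 32.2% lower, so the share of antisense RNAs higher was near the background. Protein-coding genes had a median of -0.08. In mock against input the medians of these lists were -0.12, -0.06, -0.15 and 0.00, with the LINC genes at -0.14. In PEG against mock the median of 4 reference RNAs known from the nucleus was -1.10, under that of the LINC genes. Of these RNAs, MALAT1 was higher in PEG than in mock by 1.10 and 3 were lower, NEAT1 (-1.42), KCNQ1OT1 (-0.92) and MIAT (-1.27). Of 5 known from the cytoplasm, 4 were higher, GAS5 (1.89), CYTOR (1.55), DANCR (1.33) and SNHG1 (0.78), and NORAD, which binds Pumilio proteins, was lower (-1.25).

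Detection of LINC genes outside the 314 was counted before and after the library totals were made equal. At 10 counts in 2 replicates, 422 LINC-named genes were detected in input, 434 in mock, 426 in dsRNA, 447 in silvestrol and 329 in PEG, and 69 passed in every condition but PEG against 2 in PEG alone. After every library was thinned to 15341973 counts, a choice made after the data were seen, the numbers were 316, 319, 312, 320 and 282, with 30 in every condition but PEG and 7 in PEG alone. Over all genes the numbers detected were 19103, 19663, 19694, 19975 and 16975, and 16675, 17091, 17095, 17046 and 16034 after thinning. LINC-named genes were 1.94% of the genes detected in PEG and 2.16 to 2.24% elsewhere, and 1.76% and 1.83 to 1.9% after thinning. Thinning equalized total counts and not the TMM factors, which were lower in PEG, and whether the rest of the difference comes from composition was not tested.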

How the data were processed

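Poly(A) RNA of the U2OS extract and of its pellets was sequenced by the authors, who per the submitters' processing notes used Trimmomatic 0.36, STAR 2.5.2b and featureCounts of Subread 1.5.2 on GRCh38. The annotation release, strand setting and handling of multiply mapped reads are not given in the sources used here. The deposited values are raw counts per gene and library. Symbols came from a gene name table, and types, positions and transcripts from GENCODE 29. Near copies were found by aligning transcripts.

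Counts were fitted in edgeR 4.0.16 under R 4.3.3 with TMM factors and the quasi-likelihood test, each comparison on its own 6 libraries, and adjusted by Benjamini-Hochberg over all 16612 genes that had 10 counts in 2 replicates of each condition. A gene was called at an adjusted p under 0.05. Levels in CPM use 1 set of TMM factors over the 15 libraries. The prior count was 2, and the standard error was the log2 fold change over the square root of F. DESeq2 1.42.0, other scalings and filters, a GC offset, a replicate block and leaving out libraries were alternatives. The fitting steps were tested on simulated data. Python 3.11.15 and its package matplotlib 3.10.9 made the plots.

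Replicate numbers come from the labels. Deviations of same-numbered libraries from their group means correlated at 0.140 to 0.886 in every pair of groups, over the limit of 0.1 set for giving blocked values. Libraries numbered 2 in one group and 3 in another correlated at 0.109 to 0.629, about as well as same-numbered ones other than number 1 (0.140 to 0.739), and number 1 with 2 or 3 at -0.787 to -0.139, so the deviations set number 1 apart and do not tell 2 from 3. The labels call replicates biological but do not say what a number shares.

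The members, the lists and the tests were chosen with earlier results of these data known. Genes named were the 4 largest rises and the 4 largest falls among members that were called and whose groups did not overlap, in PEG against mock and in each pellet against input, the 4 highest per kb, those called in all 4 comparisons with input in 1 direction or with PEG opposite, a list with a known role, and those called in dsRNA or silvestrol against mock. From these, examples are described. Genes that overlap or resemble a member are named as such.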

Additional observations from a re-analysis of the deposited data

How the results depend on the processing

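The shares of all genes in the same fits are given in parentheses. With the replicate number as a block, the members called higher and lower against input were 64 and 79 in mock (32.5% and 30.1%). They were 64 and 86 in dsRNA (31.0% and 29.1%) and 66 and 83 in silvestrol (30.8% and 28.7%), and 3 were lower in dsRNA against mock (2.65%). The block moved no other count of called members by over 1.5 times. With the block and a GC offset together the counts were 52 and 85 in mock (26.7% and 32.6% of all genes), 102 lower in dsRNA (34.1%), 48 and 90 in silvestrol (25.7% and 31.2%) and 3 lower in dsRNA against mock (2.94%). The GC offset alone gave 20 higher in dsRNA (13.3%) and 26 lower in PEG against input (23.7%).

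With library size alone, 25 were lower in mock (13.9% of all genes). In PEG against input 29 were higher and 81 lower (14.1% and 41.5% of all genes, member median -0.23). PEG against mock gave 48 and 96 (18.8% and 49.8% of all genes, member median -0.27). Without a low-count filter the PEG against mock median was 0.11. Leaving out the libraries numbered 1, chosen after seeing the data, gave 63 and 85 in mock (31.9% and 30.6% of all genes). It gave 54 and 98 in dsRNA (33.6% and 33.2%) and 61 and 93 in silvestrol (32.9% and 31.9%). There were 71 lower in PEG against input (35.6%) and 1 lower in dsRNA against mock (1.16%). The PEG against mock median of the members was then 0.26. Thinning, the subsets without overlaps or copies and by GENCODE name, and the GC bins were also chosen after seeing the data.

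Leaving out 1 library at a time moved the shares of all genes as well, and these are given in parentheses. In mock, 7 to 34 members were higher and 5 to 42 lower (8.04 to 18.5% and 6.12 to 17.2%). There were 15 to 36 and 21 to 49 in dsRNA (14.2 to 21.1% and 11.8 to 20.6%). Silvestrol gave 10 to 27 and 17 to 45 (12.9 to 19.1% and 10.3 to 19.8%). PEG against input gave 35 to 73 and 23 to 54 (17.7 to 31.3% and 20.9 to 30.5%). PEG against mock gave 30 to 54 lower (25.2 to 34.8%), with a member median of 0.20 to 0.35. Of the values of named genes under all alternatives, 5216 kept their side of the threshold and, where called, their direction, and 284 of these were called in neither fit and changed sign. A further 405 fell short of the threshold and 138 newly passed it. The other 6 changed sign and were called in the main fit or in the alternative. These 6 were LINC01547 with a GC offset in dsRNA (-0.002) and silvestrol (-0.04, or -0.05 with the block) against input, and, with library size alone, LINC00958 in PEG against input (-0.31) and against mock (-0.017) and LINC00839 in PEG against mock (-0.37). In the main fit LINC00958 in PEG against input (0.04) and LINC00839 in PEG against mock (0.10) were not called. The cause was not tested.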
